A study of Mus musculus with 6 samples.

Results

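The variable (V) genes of the T cell receptor were described in single-cell transcriptomes of mouse blood: all genes whose symbol starts with Trbv (beta chain, 35 genes) or Trav (alpha chain, 130 genes), 165 of the 31253 genes in the count matrices. They were read in T cells, defined as cells with at least 2 UMIs (unique molecular identifiers, each a counted RNA molecule) of Cd3d, Cd3e and Cd3g together. T cells with a Cd4 UMI and none of Cd8a or Cd8b1 were called CD4 (4834 cells), and those with a Cd8a or Cd8b1 UMI and none of Cd4 were called CD8 (6878 cells). Each lineage was split by Ccl5, a chemokine gene of effector and memory T cells. Cells without a Ccl5 UMI formed the Ccl5-negative gate (3917 CD4 and 3517 CD8 cells), cells with at least 2 formed the Ccl5-high gate (316 and 2682), and the 601 and 679 cells with exactly 1 lay between them. The mononuclear cells came from peripheral blood of male mice aged 12 to 13 weeks. The control group (Con, 3 libraries) had received saline by intraperitoneal injection. The diabetic group (T2D, 3 libraries) had received streptozotocin by the same route, in a model that the series title describes as high-fat diet with streptozotocin, a toxin of insulin-producing beta cells. The sources used here do not give the strain, the diet of the controls or the number of mice behind a library. A p-value therefore measures the spread between 6 libraries, and that spread may be technical.

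Every alpha-beta T cell builds its receptor once, in the thymus, by joining 1 of many V genes to a joining segment (and, in the beta chain, a diversity segment), and its descendants keep that choice. The V gene encodes most of the receptor's variable domain, including the loops that touch the MHC molecule, and in blood the V genes of the beta chain are a long-used label of T cell families. CD4 T cells recognise peptides on MHC class II and CD8 T cells on MHC class I, and a T cell that has responded to antigen leaves descendants with the same V genes, so that a large clone would appear as a raised share of its V gene. In the mouse the alpha locus holds duplicated blocks of V genes, whose copies carry the suffixes d and n.

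The germline ends of the V genes on which the results turn are printed first, since this is where the V gene meets the rearranged part of the receptor and where near-identical copies have to be told apart. Each line gives the last 45 bases of the V gene, 5′ to 3′, from GENCODE M21 (GRCm38, the build mm10 named by the submitters' processing notes). Capitals mark the codon of the conserved cysteine and the codon after it. The first group of 3 was used more by CD4 cells, the next group of 4 more by CD8 cells, and the last 5 are alpha chain genes.
Trbv2 (chr6:41047951-41047995, + strand): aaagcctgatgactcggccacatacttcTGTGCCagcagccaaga
Trbv31 (chr6:41557691-41557735, - strand): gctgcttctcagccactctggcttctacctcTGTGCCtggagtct
Trbv20 (chr6:41188933-41188977, + strand): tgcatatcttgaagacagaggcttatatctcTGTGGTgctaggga
Trbv12-1 (chr6:41114023-41114067, + strand): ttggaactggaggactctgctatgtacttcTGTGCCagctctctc
Trbv12-2 (chr6:41119320-41119364, + strand): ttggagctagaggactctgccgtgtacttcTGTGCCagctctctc
Trbv29 (chr6:41271837-41271881, + strand): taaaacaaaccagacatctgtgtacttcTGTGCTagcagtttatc
Trbv16 (chr6:41152186-41152230, + strand): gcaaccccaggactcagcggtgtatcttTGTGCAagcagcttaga
Trav16 (chr14:53743661-53743705, + strand): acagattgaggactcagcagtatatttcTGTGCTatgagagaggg
Trav16n (chr14:53351577-53351621, + strand): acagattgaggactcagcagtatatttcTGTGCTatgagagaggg
Trav16d-dv11 (chr14:53047777-53047821, + strand): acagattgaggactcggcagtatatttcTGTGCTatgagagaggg
Trav14-1 (chr14:53554514-53554558, + strand): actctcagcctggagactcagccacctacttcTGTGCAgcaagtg
Trav14d-3-dv8 (chr14:53079001-53079045, + strand): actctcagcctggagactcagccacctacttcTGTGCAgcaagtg
Trbv2 and Trbv31 matched in 27% of their last 200 bases, and Trbv31 is the only one of the 12 on the minus strand. Trbv12-1 and its neighbour Trbv12-2 matched in 88%. Trav16, Trav16n and Trav16d-dv11 matched in 98% to 99.5%, and the printed ends of Trav16 and Trav16n are the same.

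Of the 35 Trbv genes 29 had a UMI in T cells (4478 UMIs in all), and of the 130 Trav genes 75 had one (1487 UMIs). All 22 Trbv genes annotated as functional V genes were seen and took 98.8% of the Trbv UMIs. The 13 Trbv pseudogenes took the other 54 UMIs, 42 of them from Trbv24. No functional Trbv gene shared a stretch of 75 bases with another V gene. Of the 110 functional Trav genes, 37 shared every such stretch with another, and 1 of these 37 had a UMI (a single one), against 52 of the 59 that shared some stretches and 14 of the 14 that shared none. Values of single Trav genes with near-identical copies are therefore uncertain, and Trav genes are also given summed to their family number (Trav16 family for Trav16, Trav16n and Trav16d-dv11), a summary added after single genes had been seen.

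A Trbv UMI was found in about 1 T cell in 4. The share was 25.2% of the CD4 and 23.6% of the CD8 Ccl5-negative cells, and 22.8% and 24.7% of the Ccl5-high cells, at median totals of 3613, 4245, 3845 and 4546 UMIs per cell. B cells, which should lack these transcripts (at least 2 UMIs of Cd79a and Cd79b, none of the Cd3 genes), held a Trbv UMI in 34 of 20157 cells, 0.169%, at a median of 2791 UMIs. For Trav the shares were 10.1%, 8.13%, 8.86% and 8.65% in the same order, against 0.129% of B cells. Of the cells with a Trbv UMI, 6.17% of the CD4 and 7.72% of the CD8 Ccl5-negative cells had more than 1 Trbv gene, and 5.14% of the CD8 Ccl5-high cells. Usage is given as the share of each gene among the cells of a gate with exactly 1 Trbv (or Trav) gene. These were 927 CD4 and 765 CD8 cells of the Ccl5-negative gates and 628 CD8 cells of the Ccl5-high gate for Trbv, with 59 to 219 cells per library and gate, so that 1 cell moved a share by up to 1.69 percentage points. For Trav they were 373, 276 and 225 cells, with 16 to 82 cells per library and gate, so that 1 cell moved a share by up to 6.25 percentage points.

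The matrices held 25580045, 23574052 and 27157764 UMIs in Con 1 to 3 and 29329361, 32321855 and 29712873 in T2D 1 to 3, with 1638 to 2125 T cells per Con library and 2855 to 3095 per T2D library. Across libraries 1127 barcodes occurred more than once, 54 of them among the T cells of the 4 gates. The gates carry transcripts of other cells: B cell genes (6 of 6 detected) summed to 1076 to 2118 CPM (counts scaled to a common library total) in both Ccl5-negative gates, 561 of the 20157 B cells had a Cd4 UMI (2.78%), 5.28% had a Cd8a or Cd8b1 UMI and 10.8% a Ccl5 UMI. When all cells with a UMI of B cell marker genes or Lyz2 were left out, Trbv2 was the only V gene still tested between CD4 and CD8 Ccl5-negative cells. It was lower in CD8 cells by a log2 fold change of -1.42 (edgeR's quasi-likelihood test, adjusted p = 6.23e-06). The part of such transcripts in the values of the other V genes was not tested there. Among the Cd3 cells, 1060 had UMIs of both Cd4 and Cd8 and 1653 of neither, and these were not used.

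CD4 and CD8 cells of the Ccl5-negative gates used some Trbv genes at different shares. Trbv2 led the CD4 cells in every library, and Trbv12-2 or Trbv2 led the CD8 cells. Trbv12-1 and Trbv29 were more common in CD8 cells, and Trbv31 and Trbv20 more common in CD4 cells, in 6 of 6 libraries each. Of 18 Trbv genes with at least 15 such cells, 7 differed in 1 direction in 6 of 6 libraries, 5 higher in CD8 (Trbv12-1, Trbv12-2, Trbv14, Trbv16, Trbv29) and 2 lower (Trbv20, Trbv31). Over all genes tested between these gates, the CPM of 28.6% differed in 1 direction in 6 of 6 libraries. Shares within a gate sum to 100, so a higher share of some genes lowers the others.

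**Figure D1:**
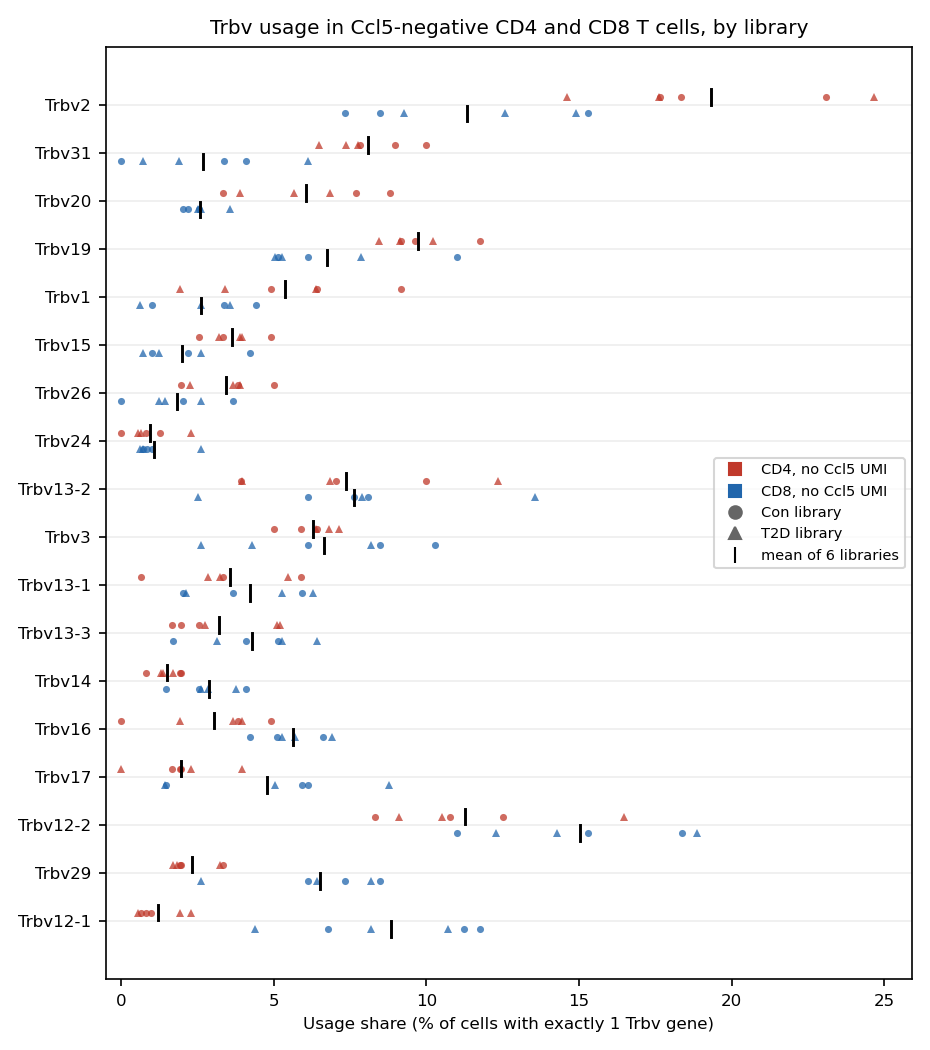
Trbv usage in CD4 (red) and CD8 (blue) cells without a Ccl5 UMI, as the share (%) of cells with exactly 1 Trbv gene. Each symbol is 1 library (circles Con, triangles T2D), black bars are means of 6 libraries, and genes are ordered by the CD8 minus CD4 difference, from Trbv2 (a mean difference of -8.01 percentage points) to Trbv12-1 (7.63).

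Trbv12-1, a member of the family long known as V beta 5, made up 0.833%, 0.980% and 0.641% of typed CD4 cells in Con 1 to 3 and 1.95%, 0.568% and 2.28% in T2D 1 to 3. In CD8 cells it made up 11.8%, 11.2% and 6.78% in Con 1 to 3 and 10.7%, 8.18% and 4.39% in T2D 1 to 3. The highest CD4 library thus lay below the lowest CD8 library, and the means were 1.21% ± 0.725 and 8.84% ± 2.91 (SD, n = 6). Its neighbour Trbv12-2, of the same family, differed less: 11.3% ± 2.93 in CD4 and 15.02% ± 3.17 in CD8 cells (SD, n = 6), higher in CD8 in 6 of 6 libraries although the ranges overlapped. Trbv29 (V beta 7) ranged from 1.70% to 3.33% in CD4 and from 2.63% to 8.47% in CD8 cells, with means of 2.33% ± 0.747 and 6.53% ± 2.12 (SD, n = 6). Trbv16 (V beta 11) stood at 3.05% ± 1.78 against 5.64% ± 0.999, and Trbv14 (V beta 13) at 1.52% ± 0.432 against 2.89% ± 0.939 (SD, n = 6). For each of these genes the two-sided exact sign-flip permutation test over the 6 libraries gave p = 0.03125, the smallest it can give. These p-values are not adjusted for the number of genes compared.

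Trbv31 (V beta 14), the gene that lies in the opposite orientation, made up 10%, 7.84% and 8.97% of typed CD4 cells in Con 1 to 3 and 6.49%, 7.39% and 7.76% in T2D 1 to 3. In CD8 cells it made up 0%, 4.08% and 3.39% in Con and 0.714%, 1.89% and 6.14% in T2D. The CD4 libraries all lay above the CD8 libraries, with means of 8.08% ± 1.24 and 2.70% ± 2.29 (SD, n = 6). Trbv20 (V beta 15) was at 6.05% ± 2.15 in CD4 and 2.58% ± 0.533 in CD8 cells, lower in CD8 in 6 of 6 libraries. Trbv2 (V beta 4) made up 18.3%, 17.6% and 23.1% of CD4 cells in Con 1 to 3 and 24.7%, 17.6% and 14.6% in T2D 1 to 3. In CD8 cells it stood at 7.35%, 15.3% and 8.47% in Con and 9.29%, 12.6% and 14.9% in T2D. It was lower in CD8 cells in 5 of 6 libraries (exact sign-flip permutation p = 0.0625), the exception being T2D 3. Trbv13-2, of the V beta 8 family, was at 7.36% ± 3.33 in CD4 and 7.64% ± 3.58 in CD8 cells (SD, n = 6), a mean paired difference of 0.280 ± 1.62 percentage points. Trbv3 was at 6.27% ± 0.756 and 6.66% ± 2.86, with a mean paired difference of 0.390 ± 3.33 percentage points.

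The same comparison was made on UMI counts summed per library and gate, in a fit over all 9336 genes that passed the filter on low counts. Only 6 Trbv genes and no Trav gene passed that filter, and the 159 other V genes were too sparse. Of these, 3 were lower in CD8 cells and 0 higher by edgeR's quasi-likelihood test, with p-values adjusted by the method of Benjamini and Hochberg. Of all genes tested 15.5% were lower, 14.3% were higher and 29.9% passed in either direction. Trbv2 was lower by a log2 fold change of -1.06 ± 0.17 (SE, adjusted p = 1.02e-05), Trbv31 by -2.0 ± 0.39 (adjusted p = 0.000154) and Trbv19 (V beta 6) by -0.73 ± 0.25 (adjusted p = 0.0227). Trbv19 did not pass with DESeq2 (another count test on the same sums), when counts were scaled to the summed V gene UMIs, or without Con 2, T2D 2 or T2D 3. Trbv12-2, Trbv13-2 and Trbv3 had log2 fold changes of 0.08 ± 0.18, -0.23 ± 0.24 and -0.19 ± 0.28 (SE) and did not pass. With the filter relaxed to genes of at least 1 UMI, 95 V genes were tested and 7 passed, all Trbv, while 3039 of all genes passed. The 7 were the 3 above, Trbv12-1 (2.22 ± 0.39, adjusted p = 2.28e-07) and Trbv29 (1.56 ± 0.38, adjusted p = 0.000456) higher in CD8, and Trbv20 (-1.21 ± 0.35, adjusted p = 0.00485) and Trbv1 (-1.10 ± 0.41, adjusted p = 0.0443) lower.

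Summing CD4 and CD8 cells of every Ccl5 level, a comparison added after these values had been seen, brought 13 Trbv genes and Trav16 over the filter, and 7 Trbv genes passed edgeR's quasi-likelihood test after adjustment, 3 higher and 4 lower in CD8 cells (38.5% of all 10052 genes passed, 18.8% higher and 19.7% lower). Trbv12-1 (log2 fold change 2.03 ± 0.29), Trbv29 (1.73 ± 0.29) and Trbv17 (V beta 9; 1.10 ± 0.32) were higher in CD8 cells. Trbv31 (-1.77 ± 0.29), Trbv2 (-1.38 ± 0.15), Trbv20 (-1.38 ± 0.26) and Trbv19 (-0.70 ± 0.21) were lower (SE in each case). Adjusted p-values ran from 9.99e-09 (Trbv2) to 0.0081 (Trbv19). With DESeq2 5 of the 7 passed, and Trbv17 (adjusted p = 0.078) and Trbv19 (0.0757) did not. Without T2D 2, Trbv19 did not pass by edgeR either (adjusted p = 0.0842), and Trbv17 was too sparse to be tested. CPM of all 7 moved in 1 direction in 6 of 6 libraries, as did those of 35.0% of all genes tested. In this comparison 2682 of 6878 CD8 and 316 of 4834 CD4 cells were Ccl5-high. The part of that imbalance in the differences was not tested. All V genes together made up a smaller part of all UMIs in CD8 cells, and scaling to their sum raised the log2 fold changes of the 14 V genes by a median of 0.36. On that scale 9 of the 14 V genes passed, 6 higher and 3 lower, but so did 7504 of the 10052 genes tested. Trbv12-2, Trbv16 and Trav16 (adjusted p = 0.0493 by edgeR's quasi-likelihood test) joined the higher genes, and Trbv19 no longer passed.

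T cell receptor transcripts as a whole were less abundant in CD8 than in CD4 cells of the Ccl5-negative gates. All Trbv genes together gave 88.1 ± 9.98 CPM in CD4 and 71.5 ± 9.89 in CD8 cells (SD, n = 6), lower in CD8 in 6 of 6 libraries. Trav genes gave 30.2 ± 3.43 and 22.1 ± 4.45 CPM, again lower in 6 of 6 (two-sided exact sign-flip permutation p = 0.03125 for each, the smallest possible). The share of cells with a Trbv UMI was 15.3% in CD4 and 12.7% in CD8 cells at a common depth of 2000 UMIs per cell, against 25.2% and 23.6% at full depth, with 204 and 197 cells too shallow to be used. The constant genes, which every alpha-beta receptor transcript carries, moved the same way: 3 of the 4 constant genes tested fell, with Trac at 1774 ± 128 CPM in CD4 and 1195 ± 94.5 in CD8 cells (log2 fold change -0.52 ± 0.03, edgeR's quasi-likelihood test, adjusted p = 1.89e-14). Trbc1 and Trbc2 differed by -0.23 ± 0.04 and -0.13 ± 0.03. Cd28, the costimulatory receptor, was lower in CD8 cells by -1.02 ± 0.04 (log2, SE).

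The alpha chain showed its own difference between the lineages. Cells with a gene of the Trav16 family made up 4.44%, 18.4% and 19.2% of the Trav-typed Ccl5-negative CD4 cells in Con 1 to 3 and 7.27%, 20.3% and 14.6% in T2D 1 to 3. In CD8 cells they made up 41.4%, 31.8% and 33.3% in Con and 30.4%, 26.3% and 23.1% in T2D. Every CD8 library lay above every CD4 library, and the means were 14.0% ± 6.67 and 31.0% ± 6.31 (SD, n = 6). The Trav14 family went the other way, 17.0% ± 6.79 of CD4 and 9.34% ± 3.79 of CD8 cells, lower in CD8 in 6 of 6 libraries. These were 2 of 12 families with at least 15 cells, and each had the smallest possible exact sign-flip permutation p (0.03125). Within the Trav16 family, Trav16n (5.0% ± 2.77 against 10.2% ± 4.55) and Trav16d-dv11 (2.45% ± 2.20 against 7.84% ± 3.60) were each higher in CD8 cells in 6 of 6 libraries, and Trav16 itself (6.59% ± 5.28 against 13.0% ± 3.81) in 4 of 6. How UMIs were divided among these copies is uncertain.

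**Figure D2:**
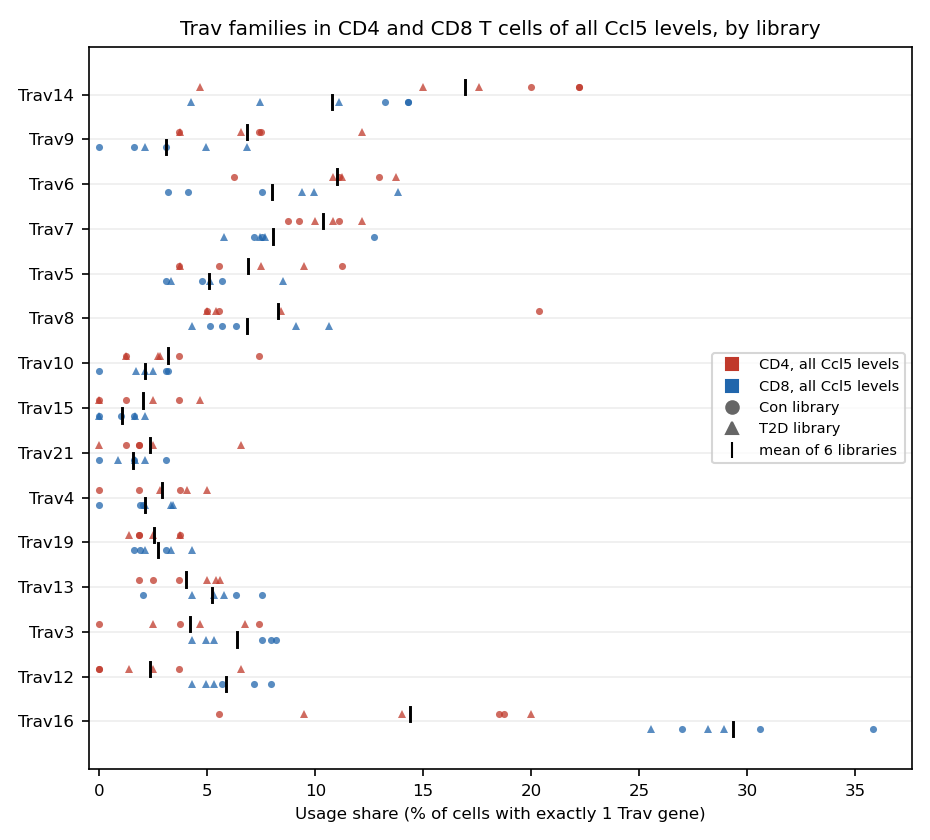
Usage of Trav families in CD4 (red) and CD8 (blue) cells of all Ccl5 levels, as the share (%) of cells with exactly 1 Trav gene. Each symbol is 1 library (circles Con, triangles T2D) and black bars are means of 6 libraries. The Trav16 family stands at 29.4% in CD8 and 14.4% in CD4 cells, and the Trav14 family at 10.8% and 16.9%.

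Invariant alpha chains were rare or not seen. Trav11 and Trav11d, the V genes of the invariant chain of natural killer T cells, had 0 UMIs in all 14425 T cells, and all 75-base stretches of both are shared with another gene, so that a count of 0 does not show the cells to be absent. Trav1, the V gene of the invariant chain of mucosal-associated T cells, had 10 UMIs in 10 cells, 3 of them CD4, 5 CD8, 1 with both markers and 1 with neither.

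Between the Ccl5-negative and Ccl5-high CD8 cells, which differed widely in their other genes, Trbv usage was close. The Ccl5-high gate was lower in 7 of 7 naive T cell genes and higher in 16 of 16 effector genes, and 31.7% of all genes passed in that comparison, 15.4% higher and 16.3% lower. Of 8 V genes tested, all Trbv, 1 passed, Trbv2, which was lower. The mean shares of the 35 Trbv genes in the 2 gates had a Pearson r of 0.97 across genes, against 0.79 between CD4 and CD8 Ccl5-negative cells. These r are descriptions over genes from the same 6 libraries, and shares within a gate depend on each other. Trbv12-2 led the Ccl5-high CD8 cells in all 6 libraries, with 18.6%, 21.5% and 13.3% in Con 1 to 3 and 16%, 14.6% and 13.4% in T2D 1 to 3. Trbv13-2 (9.25% ± 2.01), Trbv29 (8.54% ± 2.85), Trbv12-1 (8.16% ± 2.34) and Trbv2 (8.13% ± 1.19) followed, without a difference beyond their spread between neighbours in that order.

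**Figure D3:**
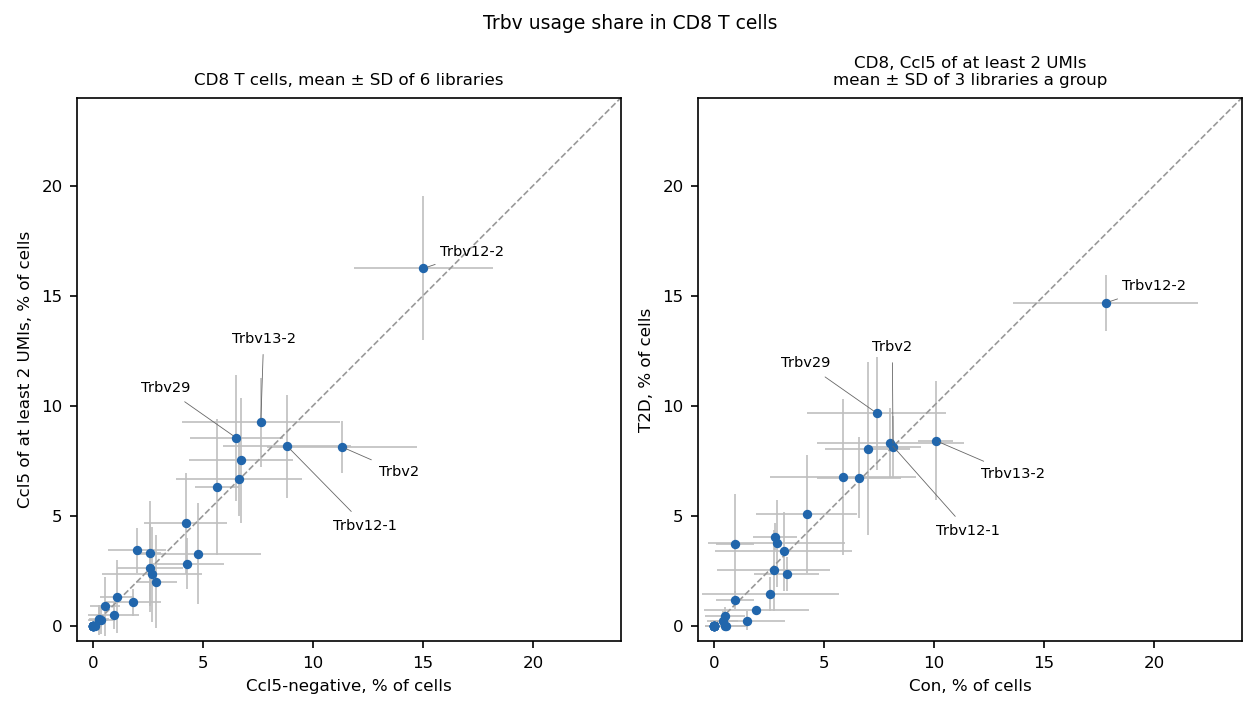
Mean usage share (%) of the 35 Trbv genes. Left: CD8 cells without a Ccl5 UMI (x) against CD8 cells with at least 2 (y), mean ± SD of 6 libraries. Right: Con (x) against T2D (y) in the CD8 cells with at least 2 Ccl5 UMIs, mean ± SD of 3 libraries a group. The dashed line marks equal shares, and Trbv2 lies below it on the left (11.3% against 8.13%).

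Trbv2 in Ccl5-high CD8 cells made up 6.78%, 9.23% and 8.43% in Con 1 to 3 and 6.67%, 9.49% and 8.21% in T2D 1 to 3, below the Ccl5-negative CD8 cells of the same library in 6 of 6. The mean paired difference was -3.18 ± 2.75 percentage points (SD, n = 6). On summed counts its log2 fold change was -0.57 ± 0.22 (SE), with an adjusted p of 0.0485 by edgeR's quasi-likelihood test. This call was lost in 10 of the 11 alternatives in which the gene was tested, with values from -0.64 to -0.44, among them DESeq2, scaling to the summed V gene UMIs, and leaving out Con 1, Con 2, T2D 1, T2D 2 or T2D 3. The other 7 tested genes had log2 fold changes from -0.21 (Trbv12-1) to 0.18 (Trbv29), with standard errors from 0.20 to 0.31. Among 18 Trbv genes with at least 15 cells the mean paired differences in share ran from -3.18 (Trbv2) to 2.01 percentage points (Trbv29), with a median size of 0.775, against 2.68 between CD4 and CD8. Of 11 Trav families none differed in 1 direction in 6 of 6 libraries. The Trav16 family was at 31.0% ± 6.31 and 26.1% ± 7.08, and the Trav12 family at 4.22% ± 2.95 and 8.26% ± 4.39 (SD, n = 6).

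The constant and gamma-delta genes did differ between these gates. Transcripts of Trgc2, a constant gene of the gamma chain, stood at 3.27 ± 2.71 CPM in the Ccl5-negative and 73.0 ± 18.6 in the Ccl5-high CD8 cells (SD, n = 6), and Trdc, of the delta chain, at 16.3 ± 6.97 and 57.9 ± 22.5. Trbc1 and Trbc2 were lower by -0.19 ± 0.05 and -0.17 ± 0.04 and Trac higher by 0.15 ± 0.04 (log2, SE). All 7 constant genes thus passed edgeR's quasi-likelihood test, 5 higher and 2 lower. The part of gamma-delta T cells in the V gene shares of the Ccl5-high gate was not tested.

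Evenness of usage bears on whether a few V genes dominate a gate. It was measured as the effective number of Trbv genes, the number of equally used genes that would give the same chance for 2 cells of a library to share their gene. In the Ccl5-high CD8 cells it was 13.2, 12.5 and 14.4 in Con 1 to 3 and 12.7, 13.6 and 13.5 in T2D 1 to 3. In the Ccl5-negative CD8 cells it was 11.8, 12.8 and 15.8 in Con and 13.0, 11.8 and 15.2 in T2D. The ranges overlapped, with means of 13.3 ± 0.685 and 13.4 ± 1.72 (SD, n = 6) and a mean paired difference of -0.0899 (two-sided exact sign-flip permutation p = 0.8125). CD4 Ccl5-negative cells had 11.5 ± 1.69. Only libraries with at least 50 typed cells in a gate were used, a minimum chosen after the cell numbers were known, and no CD4 Ccl5-high library reached it.

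**Figure D4:**
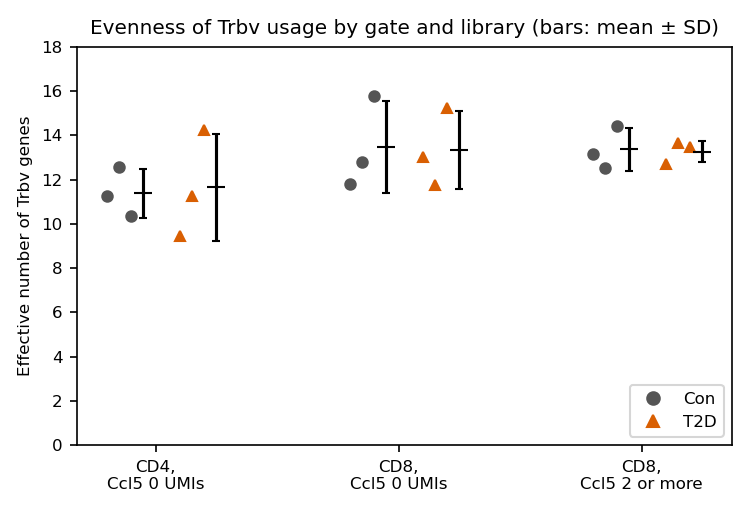
Effective number of Trbv genes (y) in the 3 gates that could be measured (x), 1 symbol per library (circles Con, triangles T2D), with the mean ± SD of 3 libraries a group. Groups overlap in each gate, and the CD8 gates centre on 13.3 to 13.4 genes.

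Cells of the same library and cells of different libraries shared their Trbv gene at like rates. In Ccl5-high CD8 cells the chance that 2 cells shared a Trbv gene was 7.52% on average within a library (6.94% to 7.98%) and 7.65% between libraries (7.27% to 8.24% over 15 pairs of libraries). In Ccl5-negative CD8 cells it was 7.55% and 7.38%, and in CD4 cells 8.83% and 8.81%. A CD4 and a CD8 cell of the same library shared a gene in 7.12% of pairs. Both chains were typed in 247 T cells of the CD4 and CD8 lineages, which held 238 different combinations of Trbv gene, Trav gene, library and lineage. Of these, 9 occurred in 2 cells and none in more, for instance Trbv12-2 with Trav16 in 2 CD8 cells of Con 1 and Trbv29 with Trav16d-dv11 in 2 CD8 cells of T2D 1. A V gene pair is shared by many clones, and the joining sequence was not analysed here.

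The CD4 Ccl5-high cells were too few for a test of T2D against Con: 16, 18 and 19 cells in Con 1 to 3 against 116, 54 and 93 in T2D 1 to 3. Their Trbv-typed cells numbered 5, 3 and 0 in Con and 21, 11 and 29 in T2D. No Trbv gene was more common than Trbv2 in any T2D library. In T2D 2 the 11 typed cells held 9 Trbv genes, and another gene also had 2 cells. Trbv2 had 5 of 21, 2 of 11 and 6 of 29 cells in T2D 1 to 3 (23.8%, 18.2% and 20.7%). Exact Clopper-Pearson 95% intervals together run from 2.28% to 51.8% and cover counting error only. The Trbv2 shares lie in the range of Trbv2 in the CD4 Ccl5-negative cells of the 6 libraries (14.6% to 24.7%). Against the Ccl5-negative CD4 cells, Trbv2 was the only V gene that could be tested and did not pass (log2 fold change -0.20 ± 0.38, SE, edgeR's quasi-likelihood test, adjusted p = 0.84, where 15.3% of all genes passed). DESeq2 called none either, and no V gene had an unadjusted p under 0.05.

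Between T2D and Con no V gene passed the test in any gate. In CD4 Ccl5-negative cells 8 Trbv genes were tested and 0 passed edgeR's quasi-likelihood test after adjustment, where 4.34% of all genes passed. In CD8 Ccl5-negative cells it was 0 of 10 (0.946% of all genes), and in CD8 Ccl5-high cells 0 of 7 (3.24%). No V gene had an unadjusted p under 0.05 in these 3 gates. DESeq2, which gave an adjusted p to 8, 0 and 1 of them, called none. The log2 fold changes ran from -0.44 (Trbv1) to 0.46 (Trbv12-2) in CD4 cells, from -0.69 (Trbv3) to 0.38 (Trav16) in CD8 Ccl5-negative cells and from -0.41 (Trbv12-2) to 0.65 (Trbv29) in CD8 Ccl5-high cells. Their standard errors, 0.23 to 0.53, are of the same order, so that differences of this size could not be shown at this depth. CPM of 0 of these genes were without overlap between the groups in each gate, against 23.3%, 17.0% and 21.8% of all genes tested.

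In usage shares of the beta chain few genes separated the groups. In CD4 cells 2 of 15 Trbv genes with at least 15 cells did not overlap, where by CPM 23.3% of all genes tested did not. Trbv31 was at 10%, 7.84% and 8.97% in Con and 6.49%, 7.39% and 7.76% in T2D, and Trbv13-3 was at 1.67%, 1.96% and 2.56% in Con and 5.19%, 5.11% and 2.74% in T2D. For both, the two-sided exact permutation p over the libraries was 0.1, the smallest that 3 against 3 can give. In CD8 cells 0 of 16 (Ccl5-negative) and 0 of 15 (Ccl5-high) Trbv genes were without overlap, where by CPM 17.0% and 21.8% of all genes tested were. The largest mean difference there was that of Trbv3, 8.30% ± 2.09 in Con and 5.03% ± 2.85 in T2D (SD, n = 3 each), in Ccl5-negative cells. In Ccl5-high cells it was that of Trbv12-2, 17.8% ± 4.20 and 14.7% ± 1.29. Across the 35 Trbv genes the Con and T2D means had a Pearson r of 0.98, 0.97 and 0.96 in the 3 gates, a description over genes. The effective number of Trbv genes was 11.4 ± 1.11 in Con and 11.7 ± 2.43 in T2D in CD4 cells, and 13.5 ± 2.07 and 13.3 ± 1.75 in CD8 Ccl5-negative cells. In Ccl5-high CD8 cells it was 13.4 ± 0.962 and 13.3 ± 0.491 (SD, n = 3 each; exact permutation p = 1.0, 0.9 and 1.0).

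Among alpha chain families with at least 15 cells in a gate, T2D and Con did not overlap in 0 of 9 in CD4 Ccl5-negative cells and 3 of 7 in CD8 Ccl5-negative cells (Trav6, Trav14, Trav16). In CD8 Ccl5-high cells it was 1 of 4 (Trav12, with 3, 2 and 4 cells in Con 1 to 3 and 1, 4 and 2 in T2D 1 to 3). Over all Ccl5 levels it was 2 of 9 in CD4 (Trav13, Trav14) and 4 of 11 in CD8 cells (Trav3, Trav6, Trav12, Trav14). By CPM, a different measure from usage shares, 23.3%, 17.0% and 21.8% of all genes tested were without overlap in the 3 gates. For all Ccl5 levels no such share was computed. The Trav14 family made up 22.2%, 22.2% and 20% of Trav-typed CD4 cells of all Ccl5 levels in Con 1 to 3 and 17.6%, 15% and 4.67% in T2D 1 to 3. In CD8 cells it made up 13.2%, 14.3% and 14.3% in Con and 11.1%, 7.44% and 4.26% in T2D. All T2D libraries thus lay below all Con libraries in both lineages, with the lowest share of each in T2D 3 and with 70 CD4 and 56 CD8 cells behind them. Of the 3 gates, they did so in CD8 Ccl5-negative cells. In CD4 Ccl5-negative cells T2D 1 (21.8%) lay inside the Con range of 20% to 21.9% (exact permutation p = 0.3), and in CD8 Ccl5-high cells T2D 1 (14.6%) lay above Con 2 (12.5%; p = 0.2 by the same test). Trav12 and Trav3 were lower on average in T2D in CD8 cells of all Ccl5 levels, at 4.85% ± 0.531 each against 6.91% ± 1.16 and 7.88% ± 0.312 in Con. Trav12 was lower in T2D in the Ccl5-high CD8 cells (11.8% ± 1.62 in Con and 4.68% ± 2.66 in T2D). In the Ccl5-negative CD8 cells it was higher on average in T2D (2.93% ± 3.51 in Con and 5.52% ± 2.10 in T2D), with overlap. Trav13 was at 5.34% ± 0.309 in T2D against 2.69% ± 0.940 in Con in CD4 cells of all Ccl5 levels (SD, n = 3 each). The Trav6 family was at 7.55%, 3.17% and 4.08% in Con and 9.40%, 9.92% and 13.8% in T2D in CD8 cells, without overlap, and overlapped in CD4 cells. For each family without overlap the exact permutation p was 0.1, the smallest possible, before any adjustment. No Trav14 or Trav6 gene passed the filter for the fit across all genes. The Trav16 family did not overlap in CD8 Ccl5-negative cells (35.5% ± 5.14 in Con and 26.6% ± 3.65 in T2D, SD, n = 3 each) and overlapped in CD8 Ccl5-high cells (24.3% ± 10.2 and 27.9% ± 3.29).

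Whether the step from Ccl5-negative to Ccl5-high cells differed between T2D and Con was tested as an interaction. In CD8 cells 0 of 11 V genes passed edgeR's quasi-likelihood test (0.553% of all genes did). Trbv29 alone had an unadjusted p under 0.05 (0.0264, adjusted p = 0.44), with a log2 difference of 1.34 ± 0.58. In CD4 cells 0 of 4 passed (0.0791% of all genes), and none had an unadjusted p under 0.05. The Ccl5-high CD4 sums of Con 1 to 3 in that fit came from 16, 18 and 19 cells with 6, 5 and 0 Trbv UMIs. The CD4 result therefore does not show the step to be alike in the 2 groups. DESeq2 gave an adjusted p to 4 V genes in CD4 and to 0 in CD8 cells and called none.

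The gates themselves differed between the groups in cell number and content. T2D libraries held 564 to 643 Ccl5-high CD8 cells and Con libraries 238 to 332. In the CD4 Ccl5-negative gate, regulatory T cell genes (4 of 4 detected) summed to 80.6 to 142 CPM in Con and 185 to 309 in T2D. Effector genes (16 of 16) summed there to 521 to 644 and 1037 to 1350 CPM, and monocyte genes (5 of 5) to 212 to 340 and 531 to 719 CPM. The part of these differences in the V gene shares was not tested. All Trbv genes together stood at 81.4 ± 9.02 CPM in Con and 94.8 ± 5.73 in T2D in that gate (SD, n = 3 each), where the Con libraries all lay below the T2D libraries (exact permutation p = 0.1, the smallest possible), and at a common depth of 2000 UMIs 14.4% ± 1.74 and 16.2% ± 0.700 of cells held a Trbv UMI (p = 0.2 by the same permutation test).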

How the data were processed

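Sample titles gave the groups and library numbers. Mononuclear cells were isolated on a density gradient and made into BD Rhapsody whole-transcriptome libraries, per the labels' protocols, which enrich the 3′ end of transcripts and carry UMIs. The V gene lies at the 5′ end, so only part of the molecules reach it. Per the submitters' processing notes, mm10, Seurat, UMI-tools and CASAVA 1.8 are listed without roles. Aligner, annotation and strand setting are not named in these sources. The authors deposited unnormalized UMI counts for each gene and barcode, with a lowest barcode total of 501 to 503.

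Barcodes under 200 genes or above 20% mitochondrial UMIs were dropped, and 1556 doublets (2.56% to 3.65% per library) were left out by scrublet (scanpy 1.11.5, expected rate 0.06) with 1 common score threshold (0.279, the median over libraries), leaving 47469 of 49407. The V genes, gates and gene lists were chosen with earlier results of these data known. Counts were summed per library and gate where each library had at least 30 cells and tested over all genes with edgeR 4.0.16 (R 4.3.3; TMM, filterByExpr, quasi-likelihood test, Benjamini-Hochberg adjusted p under 0.05). Fits within a library (CD8 against CD4, Ccl5-high against Ccl5-negative) had the library as a term. For T2D against Con in CD4 Ccl5-high cells this minimum was not met, and no fit was made. For Ccl5-high against Ccl5-negative CD4 cells and for the CD4 interaction the small sums were kept. DESeq2 1.42.0 and the settings in the closing section were alternatives. Values with 1 number per library were tested by exact permutation, in Python 3.11.15 with scipy 1.17.1. Shares of cells at a common depth are the expected shares after thinning each cell to 2000 UMIs.

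The list of receptor signalling genes is not reported here in full. Named V genes were those that passed a fit, the 5 Trbv and 5 Trav genes of highest mean share in each Ccl5-negative gate, the leading Trbv gene of each Ccl5-high gate, and Trav11, Trav11d and Trav1. Others, among them Trbv13-3, Trbv14, Trbv16, Trbv17, Trbv20, Trbv29, Trav families and Trav3-3, were named after their values were seen. GENCODE M21 held all 165 V genes by identifier. Libraries were not duplicates: the chi-square over degrees of freedom of their gene totals was 2.73 at the lowest.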

Additional observations from a re-analysis of the deposited data

Results flagged for a closer look

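Trav3-3, an alpha chain V gene with 26 CD8 and 18 CD4 typed cells over all Ccl5 levels, moved in opposite directions between the lineages in the 2 groups. In Con 1 to 3 its share was 0%, 5.56% and 3.75% of CD4 cells and 7.55%, 6.35% and 8.16% of CD8 cells, higher in CD8 in 3 of 3 libraries. In T2D 1 to 3 it was 6.76%, 2.50% and 4.67% of CD4 cells and 3.42%, 2.48% and 3.19% of CD8 cells, lower in CD8 in 3 of 3, with a difference of -0.0207 percentage points in T2D 2. The mean CD8 minus CD4 difference in T2D minus that in Con was -5.86 percentage points. The difference between the groups was not tested. It was found by scanning all V genes with at least 15 typed cells in 3 paired comparisons.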

How the results depend on the processing

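Calls between CD4 and CD8 changed with the V genes that had enough UMIs to be tested, with the test and with the scaling. In the Ccl5-negative gates 3 of 6 V genes tested were called. Without the filter on low counts 7 of 95 were (2 higher and 5 lower in CD8). It was 1 when cells with a UMI of B cell marker genes or Lyz2 were left out, where 1 V gene was still tested. The calls were 2 of 6 with DESeq2 and 2 of 6 with counts scaled to the summed V gene UMIs. They ranged from 2 to 3 when each library was left out in turn. Over all Ccl5 levels 7 of 14 V genes tested were called. With DESeq2 it was 5, and with counts scaled to the summed V gene UMIs 9. Without the filter it was 11 of 100 tested, and with each library left out 5 to 9. The single call between Ccl5-high and Ccl5-negative CD8 cells (Trbv2) became 0 with DESeq2, with counts scaled to the summed V gene UMIs, without the filter, with doublets kept, with those B cell and Lyz2 cells left out (1 V gene tested, not Trbv2), and with at least 3 Ccl5 UMIs, and was 0 to 1 with each library left out; the cause was not tested. The counts for T2D against Con and for the interactions were 0 in every alternative run, but no V gene was tested, or given an adjusted p, for T2D in CD8 Ccl5-negative cells and the CD8 interaction with DESeq2, or for T2D in CD8 Ccl5-negative cells with B cell and Lyz2 cells left out. The other fits without those cells tested 1 or 2. The differences in effective number changed sign. T2D minus Con was -0.0472 in CD4 cells with doublets kept and 1.496 in Ccl5-high CD8 cells by shares of UMIs. With each library left out it ran from -1.05 to 1.36 in CD4, -1.07 to 1.03 in CD8 Ccl5-negative and -0.519 to 0.425 in CD8 Ccl5-high cells, and Ccl5-high minus Ccl5-negative ran from -0.481 to 0.245. None of these had an exact permutation p under 0.05, but most could not have. A comparison of 3 against 3 libraries cannot give a p under 0.1. With a library left out, neither permutation test can go under 0.05.

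The labels do not say whether library numbers pair the libraries of the 2 groups. Deviations of same-numbered libraries correlated at -0.185 to 0.167, which does not settle it. With the number as a replicate block the T2D fits called 0 V genes, as without it. Over all genes the block changed the calls from 407 to 532 in CD4 Ccl5-negative cells. In CD8 cells they went from 89 to 150 (Ccl5-negative) and from 299 to 326 (Ccl5-high). T2D against Con in CD4 Ccl5-high cells and the evenness of that gate had no alternatives, since no value could be had.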

Other observations

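Trbv24, annotated as a pseudogene in the reference strain, had 42 UMIs in 41 T cells, more than the annotated functional genes Trbv23 (36 UMIs) and Trbv30 (2 UMIs). As the only Trbv gene of a cell it was seen in 10 CD4 and 8 CD8 Ccl5-negative cells and in 7 CD8 Ccl5-high cells, at mean shares of 0.936% ± 0.780, 1.10% ± 0.764 and 1.33% ± 1.66 (SD, n = 6). T cells with neither a Cd4 nor a Cd8 UMI held a Trbv UMI in 13.6% of 1090 Ccl5-negative and 11.2% of 410 Ccl5-high cells, at median totals of 2928 and 3809 UMIs. At a common depth of 2000 UMIs these shares were 9.85% and 6.57%. Pooled over libraries, the CD4 and CD8 Ccl5-negative gates stood at 15.3% and 12.6% at that depth, and the Ccl5-high gates at 12.6% and 11.9%. The difference was not tested. T cells with both markers held one in 28.5% of 713 Ccl5-negative cells and had more than 1 Trbv gene in 9.36% of those.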
